A study of Mus musculus with 22 samples.

Results

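The immune, complement and antigen presentation genes held 110 of the 9857 ac4C peaks found in kidney RNA, in 68 of the 4909 genes with a peak. The rule that chose them uses gene symbols and no measured value, but it was set with earlier results of these data known. It takes in the H2 genes of the histocompatibility complex, C1q and complement factors, chemokines and their receptors, interferon-related genes, interleukins and the TNF family, genes with a Cd number, pattern receptors and NF-κB genes, colony stimulating factors and their receptors, and Fgr. A choice by symbol also took in genes of other function, such as H2-Ke6, a steroid dehydrogenase, Cd2bp2, which works in splicing, and the C1q-related genes C1qtnf1, C1qtnf6, C1qtnf7 and C1ql3, which are not complement components. The 110 peaks lie in 82 separate regions, because 64 belong to a list called in db/db mice, 46 belong to one called in db/m mice, and many regions appear in both.

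N4-acetylcytidine (ac4C) is an acetylated form of cytidine written into RNA by the enzyme NAT10, and acRIP-seq pulls down RNA fragments that carry it with an antibody (IP). The series asked how ac4C differs in diabetic nephropathy. The kidneys came from 6 male db/db mice, whose leptin receptor is defective on both alleles and which develop obesity and diabetes, and 5 male db/m mice, heterozygous controls that do not become diabetic. Each animal gave 1 IP library and 1 RNA-seq library made without the antibody, 22 in all. No treatment is given in the labels for any animal, and the age at which these kidneys were taken is not given in the sources used here. The data are read counts inside peaks, not over whole genes, and levels are given as CPM over all reads in peaks, with library sizes scaled by TMM.

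Major histocompatibility complex (MHC) class I molecules show peptides made inside the cell to T cells, and almost every cell type makes them, tubular epithelium included. Complement is a cascade of plasma proteins that marks and lyses targets, and the kidney makes several of its components. Interferons switch on a large family of defence genes through promoter elements read by STAT and IRF factors, and chemokines such as Cxcl9 draw lymphocytes to a site. Most other genes of the set are used mainly by blood-derived cells, which are a minority in kidney tissue. Fgr is a Src-family tyrosine kinase of neutrophils, monocytes and macrophages.

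Reads counted in peaks ranged from 7577171 to 9862426 in the db/db IP libraries, from 9125099 to 10293757 in the db/m IP libraries, from 3160992 to 3352535 in db/db RNA-seq and from 3151035 to 3265239 in db/m RNA-seq. Where no read was found, as many as 3 remain possible by counting error alone, and 3 reads come to 0.305 to 0.362 CPM in an IP library and to 0.857 to 0.981 CPM in an RNA-seq library. Of 13 kidney marker genes 7 had a peak, and their summed RNA-seq level was 1304 to 2908 CPM in db/db and 2499 to 2743 CPM in db/m. Of their 14 peaks 1 was called higher and 4 lower in RNA-seq, and the same numbers in IP. The proximal tubule genes Lrp2 (-0.90 on the log2 scale, adjusted p = 0.00330) and Slc34a1 (-1.04, adjusted p = 0.0181) fell in RNA-seq, and the collecting duct gene Aqp2 rose (1.38, adjusted p = 7.82e-05). Slc5a2, also of the proximal tubule, had no called peak (-0.16, -0.15 and -0.37 in RNA-seq, edgeR adjusted p = 0.654, 0.667 and 0.209). Of 12 lung marker genes 6 had a peak, and 4 IP libraries stood apart in them: db/db animals 1 to 4 held 419, 331, 289 and 104 reads, against 5 in each of db/db animals 5 and 6 and 1 to 10 in the db/m animals, while the RNA-seq libraries held 0 to 5.

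The immune peaks were weakly covered. The median immune peak held 195 reads summed over the 22 libraries, against 3198 over all peaks, and 46 of 110 (41.8%, against 18.7% of all peaks) had under 50 reads. The mean RNA-seq count was under 10 reads in 67 of them (60.9%, against 31.8%), and 41 peaks in 21 genes reached 10 reads on average in both library types. In 47 of the 68 genes no peak did. The median length was 180.5 bases against 241 bases, and 33 of the 110 peaks, against 15.5% of all peaks, had a false discovery rate over 0.05 in the authors' peak calling. On chromosome 17, which holds the histocompatibility complex, lay 21 of the peaks (19.1%, against 5.07%). Of 26 core immune genes looked up by name, 7 had a peak: Fgr, H2-K1, H2-D1, Psmb9, C1qa, Cfb and Irf1. No MHC class II gene, no B2m and no C3 peak was among the 110.

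Promoter sequences from RefSeq (GRCm38.p6) were matched for 55 of the 68 genes, each window running from 250 bases before to 50 bases after a gene start. The interferon-stimulated response element was searched as TTTCNNTTTC or its reverse GAAANNGAAA, and 7 of the 55 genes (12.7%) held it, against 3.99% of all genes with a promoter: Gbp3, Gbp5, H2-T23, Ifi203, Ifi205, Ifit1 and Il1rap. The STAT element TTCNNNGAA, the same on both strands, was in 9 of the 55 genes (16.4%, against 9.55%), with Gbp5 the gene that held both. Windows with 30 bases on each side of the element are shown for Gbp3, Ifi203, Ifi205, Ifit1 and H2-T23. Those of Gbp5 and Il1rap are not shown. The choice was made with the reads known, since 3 of those shown were lower in db/db mice or had all db/db animals under all db/m animals in CPM. Capitals mark the element, and each window is written along its gene.
Gbp3: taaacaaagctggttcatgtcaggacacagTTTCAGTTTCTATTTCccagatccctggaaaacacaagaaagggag
Ifi203: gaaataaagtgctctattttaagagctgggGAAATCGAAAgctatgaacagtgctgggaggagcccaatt
Ifi205: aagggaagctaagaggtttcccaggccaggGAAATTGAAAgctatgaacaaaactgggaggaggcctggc
Ifit1: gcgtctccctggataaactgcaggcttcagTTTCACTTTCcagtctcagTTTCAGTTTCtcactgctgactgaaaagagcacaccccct
H2-T23: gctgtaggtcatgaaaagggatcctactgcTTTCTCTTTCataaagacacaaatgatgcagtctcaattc
They lie at chr3:142559969-142560044 on the plus strand, chr1:173942488-173942557 on the minus strand, chr1:174031850-174031919 on the minus strand, chr19:34640755-34640843 on the plus strand and chr17:36032786-36032855 on the minus strand. In Gbp3 both copies of the element overlap, in Ifit1 a pair lies close together, and the promoter of Ifi205 holds 1 more copy outside its window. The Cxcl9 window held neither element. A match of letters is a description and shows no bound factor.

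Few of the peaks differed between genotypes. In IP reads 1 of 110 (0.909%) had an adjusted p under 0.05 (edgeR quasi-likelihood F test, Benjamini-Hochberg over all 9857 peaks), while 6.45% of all peaks did. It was lower in db/db mice, where 3.38% of all peaks were called lower. In RNA-seq reads 7 of 110 (6.36%), in 5 genes, passed, against 11.3% of all peaks: 1 higher (background 5.34%) and 6 lower (background 5.93%). In IP relative to RNA-seq reads none passed, against 0.0304% of all peaks, and 5 had an unadjusted p under 0.05, against 6.76%. Both shares of called peaks are under the background, so they are no result about immune genes as a set. At an unadjusted p under 0.05 the immune peaks stood near the background, with 25 (22.7%) in IP against 21.2% and 25 (22.7%) in RNA-seq against 24.5%. The median log2 difference of the 110 peaks was 0.09 in IP and 0.07 in RNA-seq, against 0.00 and -0.01 over all peaks. With peaks absent from 1 genotype set to their bound, the immune medians were 0.00 and 0.00. The genotypes did not overlap in 3 immune peaks in IP reads, of Gbp3 and Tnfsf15, where the share over all peaks was 5.77%. They did not overlap in 3 in RNA-seq levels, of Cxcl9, Ifi203 and Ifi205, where that share was 7.89%. For Ifi203 this holds in CPM alone, since animals of both genotypes held 4 reads. These are bulk tissue libraries, in which fewer cells of a type and less RNA per cell cannot be told apart.

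**Figure D1:**
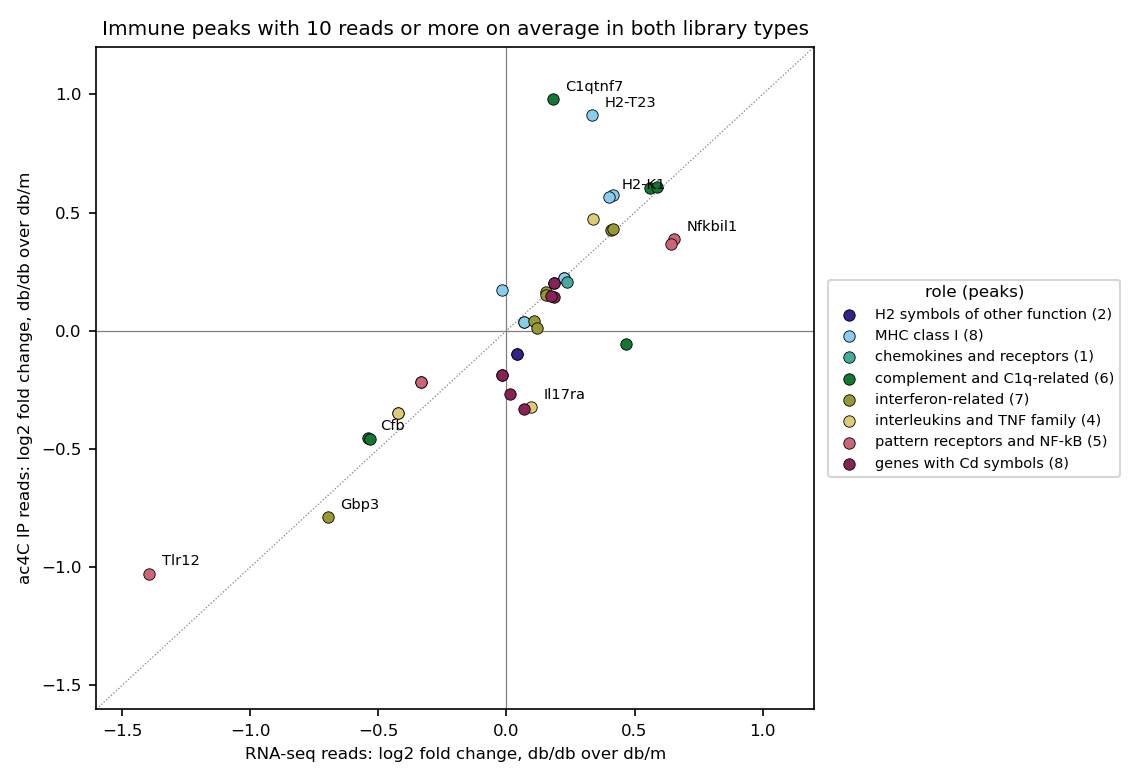
Log2 fold change of db/db over db/m in ac4C IP reads (vertical axis) against RNA-seq reads (horizontal axis) for the 41 immune peaks with 10 reads or more on average in both library types. Each point is 1 peak coloured by role and the dotted line marks equal change. H2-T23 (0.91 in IP, 0.33 in RNA-seq) and C1qtnf7 (0.98, 0.18) lie above the line, and Tlr12 (-1.03, -1.39) lies farthest to the lower left.

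MHC class I gave some of the most abundant immune peaks, and none of its 15 peaks in 7 genes passed the test in any comparison. H2-K1 and H2-D1 encode the classical class I heavy chains, and H2-T23 encodes the Qa-1 molecule read by natural killer cells. H2 genes share near-identical stretches, and how reads that fit several of them were placed is not given in the sources used here, so the split of reads between them is uncertain. The H2-K1 region at chr17:33999785-33999994 had the highest RNA-seq level of the class per length (1303 CPM per kb over its 210 bases). Its IP level was 129, 132, 83.7, 176 and 82.6 CPM in the 5 db/m mice and ran from 146 to 235 CPM with a median of 164 in the 6 db/db mice. The genotypes overlapped through 1 db/m animal, number 4. The difference of 0.57 on the log2 scale (SE 0.20) did not pass (adjusted p = 0.108), nor did that of 0.40 in RNA-seq (SE 0.20, adjusted p = 0.241). Without db/m animal 4 both passed, at 0.74 (adjusted p = 0.0372) and 0.65 (adjusted p = 0.0293). Each animal was left out in turn, and p-values without the animal that overlapped are no evidence of a difference. A second H2-K1 peak at chr17:33997075-33997292 gave 55.5 ± 32.9 CPM in db/m (SD, n = 5) and 62.5 ± 28.7 in db/db (SD, n = 6) in IP reads, with a log2 difference of 0.17 (adjusted p = 0.844). Its RNA-seq levels, 74.0 ± 34.3 and 73.3 ± 23.1 CPM, overlapped throughout.

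H2-D1 at chr17:35266057-35266757 stood at 344 ± 85.8 CPM in db/m and 402 ± 86.3 CPM in db/db RNA-seq (SD, n = 5 and 6), with a log2 difference of 0.23 (SE 0.17, adjusted p = 0.436). Its IP level was 374 ± 91.6 and 436 ± 68.4 CPM (0.22, adjusted p = 0.486). Among class I peaks with 10 reads or more on average in both library types, H2-T23 had the largest IP difference, in a peak at chr17:36030645-36030860 that also overlaps the RefSeq gene A930015D03Rik. Its IP level was 22.9, 11.9, 22.0, 27.3 and 23.8 CPM in db/m mice and from 26.3 to 69.9 CPM, with a median of 38.3, in db/db mice. The lowest db/db animal lay just under the highest db/m animal, and the others lay above all db/m animals. The log2 difference was 0.91 (SE 0.27, adjusted p = 0.0519), just outside the threshold, and it passed without db/db animal 4 (0.996, adjusted p = 0.0479) or 6 (1.04, adjusted p = 0.0232). RNA-seq reads of the same peak differed by 0.33 (SE 0.18, adjusted p = 0.278). Relative to RNA-seq the IP difference was 0.54 (SE 0.20, unadjusted p = 0.00611, adjusted p = 0.551 in edgeR), the smallest unadjusted p of the 110 peaks in that fit. A second H2-T23 peak, at chr17:36032228-36032404 and singled out after its values were seen, had a log2 difference of 0.04 in IP reads (adjusted p = 0.968).

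**Figure D2:**
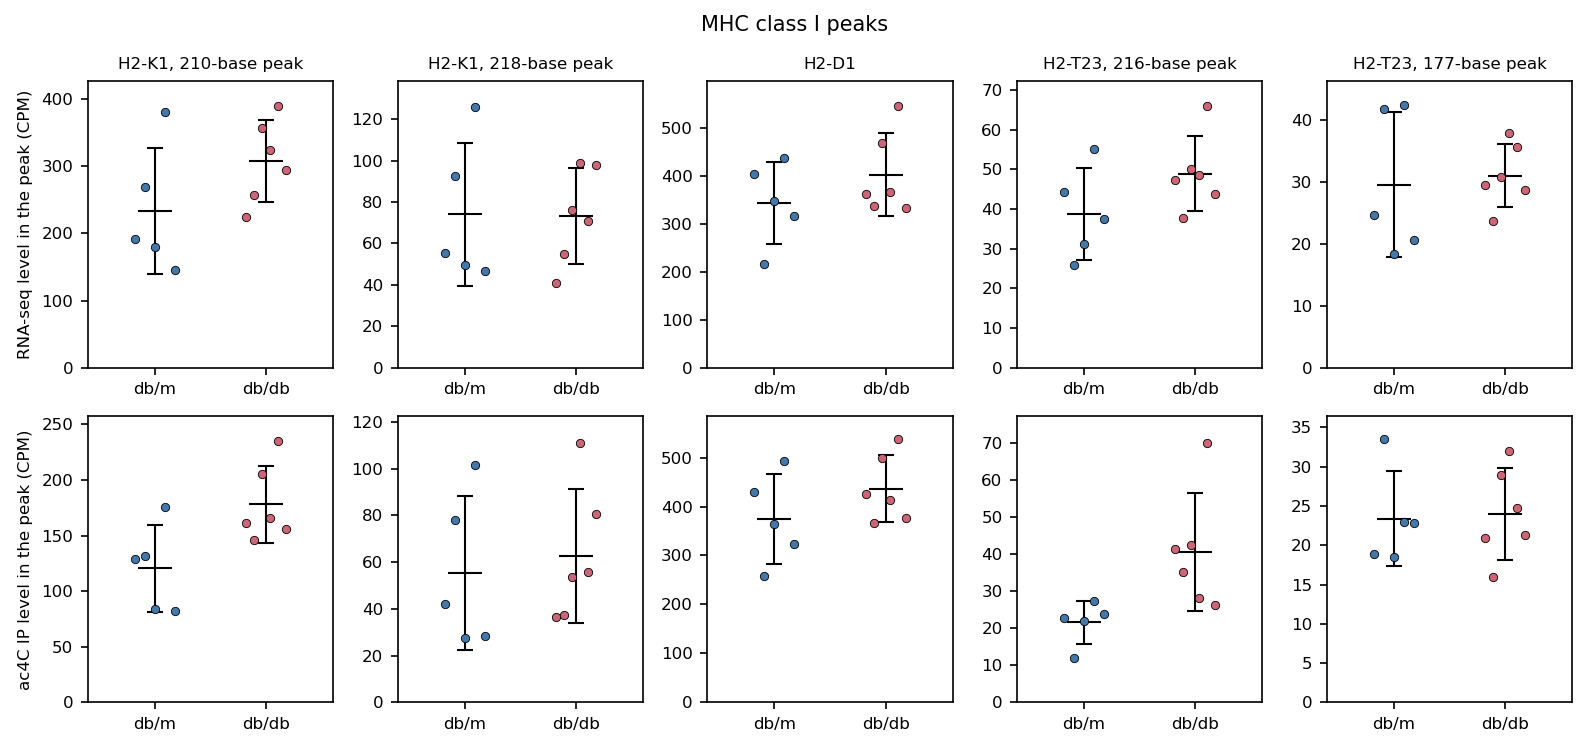
RNA-seq level (upper row) and ac4C IP level (lower row) in CPM of 5 MHC class I peaks in db/m and db/db kidneys. Each point is 1 animal, the horizontal bar is the mean and the error bar is 1 SD. In the 216-base H2-T23 peak the IP levels of db/db mice run from 26.3 to 69.9 CPM and those of db/m mice from 11.9 to 27.3 CPM.

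The other class I members were sparse. H2-Q10, a secreted class I molecule, H2-Q4 and H2-M2 had between 11 and 287 reads a peak over all libraries, and no difference passed. The peak named for Psmb9, a subunit of the immunoproteasome, is at chr17:34187494-34187674, outside the Psmb9 gene of RefSeq and within Tap1, a peptide transporter of the same pathway. It held 40 reads in all. RNA-seq gave 4, 1, 1, 1, 2 and 1 reads in db/db animals 1 to 6 and 1 read over the 5 db/m animals, a ratio of 7.89 with an exact 95% interval of 1.12 to 342.5 from counting alone (edgeR adjusted p = 0.0974). H2-Ke6 (chr17:34027680-34028000), of the same region but with another function, was level: 20.4 ± 5.42 CPM in db/m and 21.0 ± 3.41 CPM in db/db RNA-seq (SD, n = 5 and 6, adjusted p = 0.921).

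Genes that load peptides onto MHC molecules, listed by name apart from the symbol rule, were better covered: 11 of 16 had a peak, 26 peaks in all. In RNA-seq 4 of these were called higher and 6 lower, and in IP 2 higher and 4 lower, where 11.3% and 6.45% of all peaks were called. All the lower calls are peaks of Calr and Canx and all the higher ones of Psme1 and Ctsl, with several intervals counted in both peak lists. Calnexin (Canx), an endoplasmic reticulum chaperone of new class I chains, fell from 3089 ± 127 to 2023 ± 202 CPM in IP reads (SD, n = 5 and 6), which is -0.61 on the log2 scale (SE 0.11, adjusted p = 0.00180), and by 0.64 in RNA-seq (adjusted p = 0.000617). Calreticulin (Calr), its soluble partner, was lower in RNA-seq in its 4 peaks, of which 2 are the same interval in both lists, with adjusted p from 0.00171 to 0.00775. Psme1, an activator of the proteasome, rose by 0.54 in RNA-seq (SE 0.14, adjusted p = 0.0152), and the lysosomal protease Ctsl rose by 0.45 (SE 0.12, adjusted p = 0.0225) and by 0.49 in IP (SE 0.14, adjusted p = 0.0481). Tap2 and Tapbp, which deliver and hold peptides, had no called peak. The median log2 difference of the 26 peaks was 0.30 in IP and -0.25 in RNA-seq, against 0.00 and -0.01 over all peaks. The RNA-seq median falls between Pdia3 (-0.246) and a Tapbp peak (-0.257) at 0.128 CPM in db/m, under the 3-read limit. With sparse peaks and intervals counted in both lists, these medians are no result about the genes as a set. Many of these proteins also serve general protein folding. The proximal tubule markers Lrp2 and Slc34a1 were lower in the same libraries, while Slc5a2 had no called peak. The part of these markers in the Canx and Calr results was not tested.

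Among complement and C1q-related genes, complement factor B was lower in db/db kidneys. Cfb encodes the serine protease of the alternative pathway convertase, and its 2 overlapping peaks (chr17:34857087-34857258 and within it 34857111 to 34857252) count as 1 region. RNA-seq levels were 433, 272, 362, 447 and 319 CPM in db/m mice and ran from 221 to 287 CPM with a median of 246 in db/db mice. In db/db mice 1 animal lay above the lowest db/m animal and the other 5 lay under all db/m animals. Cfb fell by 0.54 on the log2 scale in RNA-seq (SE 0.13, adjusted p = 0.00976), and it passed with any 1 animal left out, with adjusted p up to 0.0432. Lrp2 and Slc34a1 were lower in the same RNA-seq libraries, by 0.90 and 1.04, while Slc5a2 had no called peak. The part of these markers in the Cfb result was not tested. In IP reads Cfb stood at 140 ± 26.9 CPM in db/m and 102 ± 11.1 CPM in db/db (SD, n = 5 and 6). That difference was -0.46 (SE 0.15, adjusted p = 0.0909), and it passed without db/m animal 2 (-0.52, adjusted p = 0.0489). This region had the highest RNA-seq level per length of the immune regions, 1767 CPM per kb in the 172-base peak and 2047 in the 142-base peak.

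C1qa, a chain of the recognition molecule of the classical pathway made by macrophages, did not pass (chr4:136896719-136897813). In RNA-seq it stood at 12.8, 5.36, 7.20, 15.3 and 5.07 CPM in db/m mice and at 4.82, 5.40, 36.0, 7.84, 3.48 and 17.9 CPM in db/db animals 1 to 6. Animal 3 was the highest of the db/db mice in IP as well, at 34.1 CPM against 5.97 to 11.0 CPM in the others. The log2 difference was 0.47 in RNA-seq (SE 0.50, adjusted p = 0.588), or -0.20 without db/db animal 3, and -0.06 in IP (SE 0.41, adjusted p = 0.974). Of the C1q-related genes, C1qtnf7 (chr5:43615660-43615839), a relative of adiponectin, had IP levels of 3.87, 4.45, 4.39, 8.27 and 7.91 CPM in db/m mice and of 5.97 to 18.1 CPM, with a median of 11.5, in db/db mice. It differed by 0.98 in IP (SE 0.34, adjusted p = 0.0997), by 0.18 in RNA-seq (SE 0.25, adjusted p = 0.684) and by 0.77 relative to RNA-seq (SE 0.39, adjusted p = 0.734). Its IP difference passed without db/db animal 6 (1.14, adjusted p = 0.0376). C1qtnf1 differed by 0.59 in RNA-seq (adjusted p = 0.0968). Of 14 further complement genes looked up by name, C1s1 alone had a peak, and it was not called.

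The chemokine Cxcl9 was lower in db/db kidneys, and its peak was the 1 immune peak called in both IP and RNA-seq reads. Cxcl9 is induced by interferon gamma and attracts T cells through the receptor Cxcr3. Its peak (chr5:92323848-92325094) belongs to the list called in db/db mice, yet db/m animals 1 to 5 held 3, 18, 17, 72 and 35 IP reads and db/db animals 1 to 6 held 4, 0, 2, 0, 0 and 4. All db/m animals but the first lay above every db/db animal. RNA-seq gave 2, 4, 3, 4 and 4 reads in db/m mice and a single read in db/db animal 6, with no overlap. The IP level was 3.16 ± 2.91 CPM in db/m (SD, n = 5) and 0.189 ± 0.222 CPM in db/db (SD, n = 6), a log2 difference of -3.97 (SE 1.03, adjusted p = 0.0245). The RNA-seq ratio of db/m over db/db was 21.5, with an exact 95% interval of 3.38 to 900.1 for counting error, and edgeR gave an adjusted p of 0.00205. The RNA-seq call held with any 1 animal left out (adjusted p up to 0.0133). The IP call was lost without db/db animal 2 (adjusted p = 0.0624), 4 (0.0633) or 5 (0.0641) and without db/m animal 4 (0.145) or 5 (0.0683). After filterByExpr, which drops sparse peaks before the fit, the 1 immune peak called in IP was of H2-T23 (edgeR adjusted p = 0.0413). Cxcl9 was dropped by that filter and not tested there, and its RNA-seq call rests on at most 4 reads in any library. Leukocyte markers were low beside it: 4 of 16 had a peak (Aif1, Coro1a, Itgam and Fgr), with 0 to 6 IP reads summed per db/db library and 2 to 17 per db/m library, 0 to 4 in RNA-seq, and the common leukocyte antigen Ptprc had no peak. Their part in the result was not tested.

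Other chemokine genes gave no call. Cxcl12, a chemokine of stromal and endothelial cells, had the highest RNA-seq level per length of the group in its 61-base peak (chr6:117179869-117179929), at 12.0 ± 0.994 CPM in db/m and 14.1 ± 2.75 CPM in db/db (SD, n = 5 and 6, adjusted p = 0.436). Ccl3, Ccl17, Ccr7, Cxcl3 and Cxcl5 peaks held between 4 and 40 reads each over all libraries.

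Of the 16 interferon-related peaks, 3 were called in RNA-seq reads, all lower in db/db mice, and none in IP reads. Over all peaks 11.3% were called in RNA-seq and 5.93% were called lower, and the 3 calls come from Ifi205 and Gbp3 alone. Ifi205, of the HIN-200 family of nuclear DNA sensors, was lower in db/db mice in 2 separate peaks. In the 656-base peak (chr1:174026610-174027265) RNA-seq gave 2, 5, 4, 6 and 3 reads in db/m mice and 1 read, in db/db animal 1, with no overlap. The ratio of db/m over db/db was 25.3 with an exact 95% interval of 4.05 to 1050 for counting error (edgeR adjusted p = 0.00128), and this call held with any 1 animal left out. In the 2266-base peak (chr1:174014996-174017261) RNA-seq levels were 4.17, 2.84, 5.23, 7.02 and 4.44 CPM in db/m mice and ran from 0.599 to 2.86 CPM with a median of 2.30 in db/db mice, of which 1 lay just above the lowest db/m animal. The difference was -1.33 on the log2 scale (SE 0.37, adjusted p = 0.0226), and it did not pass without db/m animal 3 (adjusted p = 0.0531) or 4 (0.0821). IP reads of that peak were 22, 19, 11, 35 and 4 in db/m mice and 1, 4, 7, 0, 3 and 0 in db/db mice (adjusted p = 0.139). Another Ifi205 peak (chr1:174027325-174031665) held 12 RNA-seq reads in db/m and 3 in db/db mice, a ratio of 5.07 with an exact 95% interval of 1.37 to 27.98 (edgeR adjusted p = 0.147), and its IP reads leaned the other way, with 7 in db/m and 30 in db/db mice (adjusted p = 0.474). Genes of this family are close copies in one cluster on chromosome 1, so reads could be shared between them.

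Ifi203, its neighbour in the same family, was singled out after its values were seen (chr1:173936577-173937828). It stood at 1.61, 3.15, 1.64, 1.28 and 1.27 CPM in db/m RNA-seq and from 0 to 1.21 CPM in db/db RNA-seq, without overlap in CPM. The reads were 5, 10, 5, 4 and 4 in db/m mice and 0, 4, 3, 1, 1 and 4 in db/db mice, so raw counts met at 4. The log2 difference was -1.40 in RNA-seq (SE 0.52, adjusted p = 0.0974) and -1.23 in IP (SE 0.55, adjusted p = 0.208), and neither passed. Gbp3, a guanylate-binding protein that acts on intracellular microbes, was lower in RNA-seq (chr3:142570567-142572491). Levels were 46.2, 52.0, 38.3, 68.0 and 43.1 CPM in db/m mice and from 22.8 to 46.1 CPM, with a median of 28.4, in db/db mice, where animal 6 was the highest and lay among the db/m mice. Gbp3 fell by 0.70 on the log2 scale (SE 0.19, adjusted p = 0.0229). The call was lost without db/db animal 2 (adjusted p = 0.0585), 4 (0.0600) or 5 (0.0548) or db/m animal 4 (0.0915). In IP reads Gbp3 stood at 52.5 to 83.0 CPM in db/m and 13.3 to 47.9 CPM in db/db, without overlap, at -0.79 (SE 0.25, adjusted p = 0.0748).

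Ifi30, a thiol reductase of lysosomes that helps to unfold antigens, was the most abundant of the group per length (252 CPM per kb in its 413-base peak; chr8:70764548-70764960). Its levels were 87.9 ± 14.3 CPM in db/m and 117 ± 25.7 CPM in db/db RNA-seq (SD, n = 5 and 6), a log2 difference of 0.42 (SE 0.16, adjusted p = 0.118). Without db/db animal 6 it was 0.52 (adjusted p = 0.0146). Its peak also overlaps the RefSeq gene 6330537M06Rik. Ifi35 and the transcription factor Irf3 differed by 0.15 and 0.11 in RNA-seq (adjusted p = 0.594 and 0.694). The Ifit1 peak, of a sensor of viral RNA, also overlaps Ifit1bl1. It held 4, 8, 1, 15 and 1 IP reads in db/m mice and 1, 1, 1, 1, 4 and 0 in db/db mice, with 1 RNA-seq read in all (adjusted p = 0.315 in IP). The Irf1 peak held 1 read in the 22 libraries. Of 16 other interferon response genes looked up by name 4 had a peak. Of their 6 peaks 1 was called in RNA-seq, where 11.3% of all peaks were, and none in IP. Mx1, a dynamin-like antiviral protein, stood at 0.891 ± 0.855 CPM in db/m and 0.0476 ± 0.117 CPM in db/db RNA-seq (SD, n = 5 and 6, adjusted p = 0.0265), both under the 3-read limit. Its IP reads leaned the other way, at 0.166 ± 0.221 CPM in db/db and 0 in db/m (edgeR adjusted p = 0.175).

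**Figure D3:**
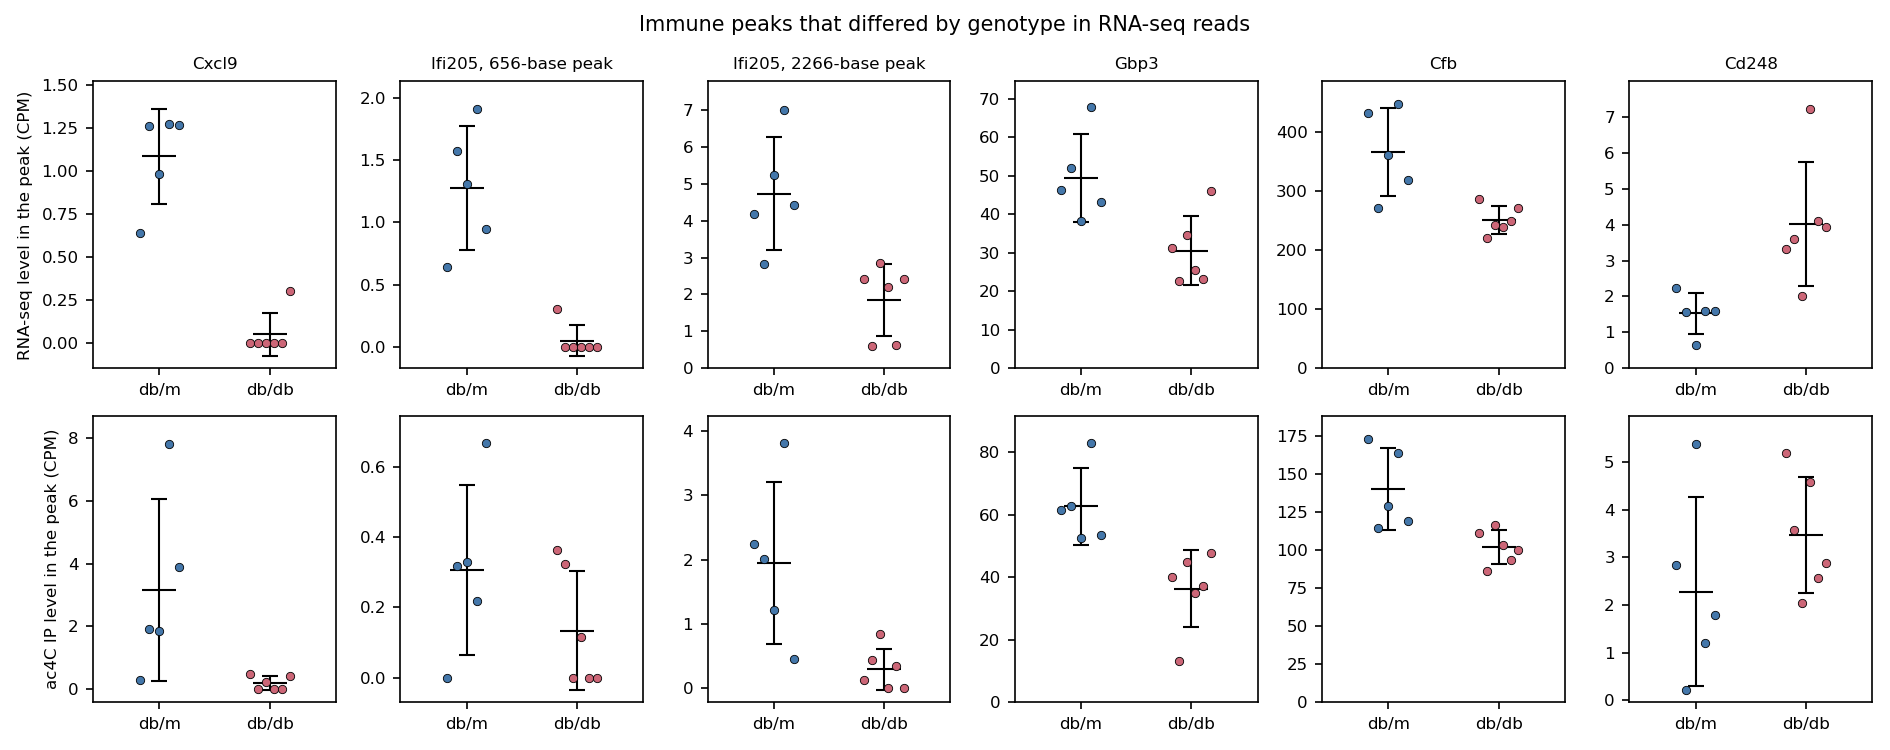
RNA-seq level (upper row) and ac4C IP level (lower row) in CPM of the 6 immune regions called in RNA-seq reads, in db/m and db/db kidneys. Each point is 1 animal, the horizontal bar is the mean and the error bar is 1 SD; in RNA-seq Cxcl9 and the 656-base Ifi205 peak have all 6 db/db animals under all 5 db/m animals, and Cd248 is the gene with the higher mean in db/db.

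Among pattern receptors and NF-κB genes no peak passed. Tlr12, a Toll-like receptor that binds profilin of parasites, was singled out after its values were seen, because animals of 1 genotype lay far apart (chr4:128615473-128615892). IP reads were 309, 169, 593, 291 and 426 in db/m mice and 328, 286, 224, 0, 137 and 13 in db/db animals 1 to 6. RNA-seq reads were 60, 42, 107, 52 and 105 in db/m mice and 81, 36, 29, 2, 27 and 2 in db/db mice. Animals 4 and 6 were near 0 in both library types, and the other db/db animals lay in or near the db/m range. The log2 difference over all animals was -1.39 in RNA-seq (SE 0.51, adjusted p = 0.0910) and -1.03 in IP (SE 0.70, adjusted p = 0.439). It passed in RNA-seq without db/db animal 1 (-2.01, adjusted p = 0.00927) or db/m animal 2 (-1.54, adjusted p = 0.0430). Animal 1 had the most RNA-seq reads of the db/db mice and animal 2 the fewest of the db/m mice. These p-values are therefore no evidence of a difference.

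Nlrp6, an inflammasome sensor of epithelia, had the highest RNA-seq level of this group per length (174 CPM per kb; chr7:140923727-140925126), with 274 ± 20.1 CPM in db/m and 217 ± 47.5 CPM in db/db (SD, n = 5 and 6). Its log2 difference was -0.33 (SE 0.14, adjusted p = 0.146), and it was -0.22 in IP (adjusted p = 0.470). Nlrp3, the sensor of the best known inflammasome, had 4 peaks with 9 to 39 reads each. The peak named for the NF-κB regulator Nfkbil1 was singled out after its values were seen. It is 14020 bases long (chr17:35220942-35234961) and also spans Atp6v1g2. It stood at 9.61 ± 3.58 CPM in db/m and 15.1 ± 2.39 CPM in db/db RNA-seq (SD, n = 5 and 6), a difference of 0.65 (SE 0.22, adjusted p = 0.0686) that passed without db/m animal 1 (0.87, adjusted p = 0.0129).

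Interleukin and TNF family genes gave the most peaks, 22 in 16 genes, and no call. Il17ra, the receptor chain for interleukin 17, had the highest RNA-seq level per length (chr6:120483309-120483429), at 18.9 ± 2.67 CPM in db/m and 20.2 ± 1.44 CPM in db/db (SD, n = 5 and 6, adjusted p = 0.723). Its IP level was 17.7 ± 4.77 and 14.2 ± 4.87 CPM, and relative to RNA-seq it differed by -0.43 (SE 0.27, adjusted p = 0.782). Il6st, the shared signal chain of the interleukin 6 family, was singled out after its values were seen. It stood at 37.1 ± 9.02 CPM in db/m and 27.6 ± 7.16 CPM in db/db RNA-seq. Its difference was -0.42 (SE 0.20, adjusted p = 0.192), or -0.56 without db/m animal 2 (adjusted p = 0.0338), and its peak overlaps no RefSeq gene of that name (chr13:112508828-112509097). The 3 genes next described were also singled out after their values were seen. Il21r (chr7:125633151-125633480) held 77, 64, 60, 76 and 52 IP reads in db/m mice and 7, 26, 128, 19, 12 and 14 in db/db animals 1 to 6, so animal 3 was the highest of all mice and the others lay under all db/m mice. The IP difference was -0.82 (SE 0.60, adjusted p = 0.472) and became -2.02 without db/db animal 3 (adjusted p = 0.00613). That fit drops the animal for which the gene was singled out, so its p-value is no evidence of a difference. No other alternative fit of Il21r in IP was called. Il27ra (chr8:84039520-84040738) held 18 and 56 IP reads in db/m animals 2 and 5 and 0 in the other 9 mice, a difference that did not pass (adjusted p = 0.0638). The Tnfsf15 peak held 3, 13, 7, 3 and 2 IP reads in db/m mice and at most 1 in each db/db mouse (adjusted p = 0.150).

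**Figure D4:**
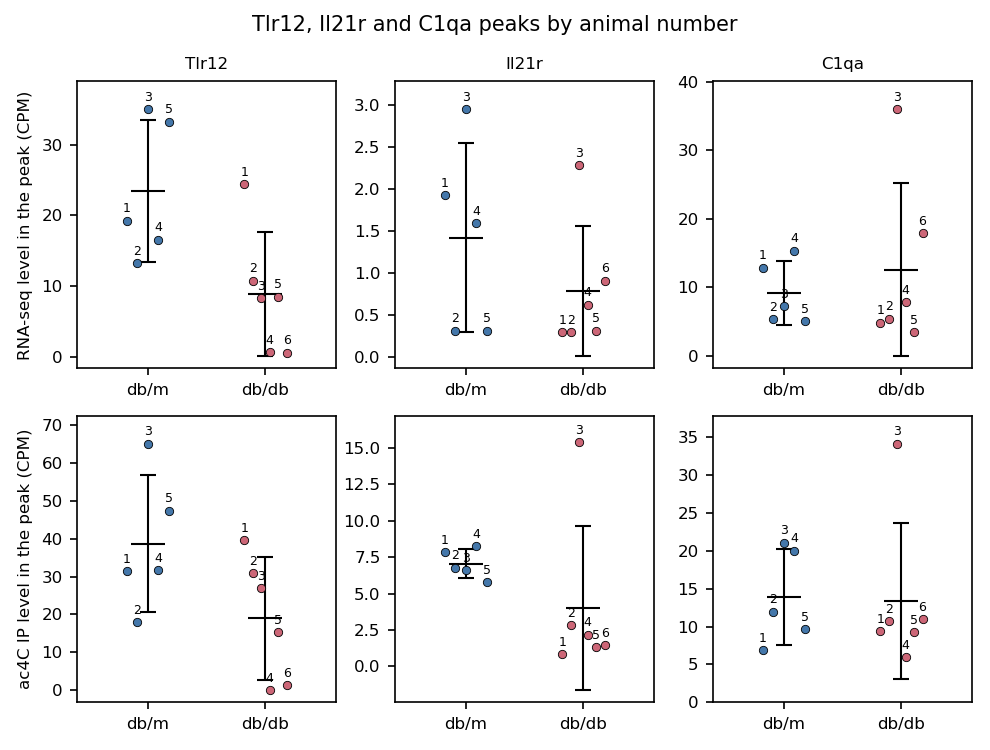
RNA-seq level (upper row) and ac4C IP level (lower row) in CPM of the Tlr12, Il21r and C1qa peaks in db/m and db/db kidneys, with the animal number beside each point, the mean as a bar and 1 SD as the error bar. In db/db mice, animals 4 and 6 are near 0 for Tlr12, and animal 3 is the highest for Il21r and C1qa in IP reads (15.4 and 34.1 CPM).

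Of the 20 peaks in 11 genes with a Cd number, 1 was called in RNA-seq reads and none in IP reads. Over all peaks 11.3% were called in RNA-seq, 5.34% were called higher there, and 6.45% were called in IP, so this is no result about the group. Cd248, or endosialin, a surface protein of pericytes and fibroblasts, rose in RNA-seq in its 61-base peak (chr19:5069268-5069328). Levels were 2.25, 1.58, 0.654, 1.60 and 1.58 CPM in db/m mice and from 1.999 to 7.21 CPM, with a median of 3.77, in db/db mice, where animal 3 alone lay within the db/m range. The log2 difference was 1.36 (SE 0.37, adjusted p = 0.0209), lost without db/db animal 4 (1.12, adjusted p = 0.0627) or db/m animal 3 (1.18, adjusted p = 0.0631). The IP difference was 0.60 (SE 0.60, adjusted p = 0.631). Endothelial markers, 5 of 10 with a peak, summed to 690 to 886 CPM in db/m RNA-seq and 958 to 1678 CPM in db/db RNA-seq. Plvap, of the diaphragms of fenestrated endothelium, had all 4 called peaks of that list, all higher in db/db mice, and its 424-base peak, at 288 ± 30.8 CPM in db/m and 563 ± 116 CPM in db/db (SD, n = 5 and 6), is counted in both peak lists. The other endothelial genes had no call, and Kdr leaned the other way (-0.39 and -0.40, adjusted p = 0.152 and 0.131). Their part in the Cd248 result was not tested. Cd63, a tetraspanin of lysosomes and exosomes in most cells, was the most abundant gene of this group per length (807 CPM per kb in its 526-base peak; chr10:128912262-128912787). It stood at 395 ± 83.4 CPM in db/m and 449 ± 93.7 CPM in db/db RNA-seq (SD, n = 5 and 6, adjusted p = 0.493). The T cell gene Cd3d had 34 reads in all and the endothelial and myeloid gene Cd93 at most 104 a peak.

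Fgr itself was barely measured. Its peak at chr4:132974132-132977156 is 3025 bases long, belongs to the list called in db/db mice and has a false discovery rate of 0.0288 in the authors' peak calling, with their fold enrichment of 13.0 for IP over RNA-seq. The IP libraries held 3, 0, 0, 2, 4 and 0 reads in db/db animals 1 to 6 and 0 in each of the 5 db/m animals. The RNA-seq libraries held 0 in every db/db animal and 1 read each in db/m animals 3 and 4. The mean IP level in db/db was 0.173 ± 0.202 CPM (SD, n = 6), under the 3-read limit, so no fold is given. edgeR gave an adjusted p of 0.169 for IP, 0.282 for RNA-seq and 0.707 for IP relative to RNA-seq, and the two-sided exact permutation test of log2(CPM + 1) in IP over 462 splits gave p = 0.182. Of the 3 IP libraries with Fgr reads, those of db/db animals 1 and 4 held 419 and 104 lung marker reads and that of animal 5 held 5. The part of lung marker RNA in this result was not tested.

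Other peaks, singled out after their values were seen, also had IP reads in db/db animals alone, with unadjusted p under 0.05. They belong to the list called in db/db mice and were picked by this pattern, so that p-value is no evidence for it. Csf2, a myeloid growth factor, had 5, 4 and 3 IP reads in db/db animals 1 to 3, and Tnfrsf9, the costimulatory receptor 4-1BB, had 2, 2 and 6 in animals 1, 2 and 4, all among the libraries with lung marker reads. C1qtnf6 had 17 of 19 reads in db/db animal 1 alone, and Il1rap, a chain of the interleukin 1 receptor, had 22 of 24 in db/db animal 6, which held 5 lung marker reads. Adjusted p in IP was 0.147, 0.164, 0.145 and 0.139 in that order, and each peak had at most 5 RNA-seq reads over all libraries. Ccl17, also of the db/db list, had the same pattern, with 1, 2 and 2 IP reads in db/db animals 1 to 3 (edgeR adjusted p = 0.2325). The receptor gene Csf2rb2 led its group in RNA-seq level per kilobase with 36 reads in all (chr15:78283146-78283295, adjusted p = 0.888 in IP). Adipocyte markers, with 2 of 9 genes in the table, held 0 to 20 IP reads a library and 0 or 1 in RNA-seq. Of 8 other Src-family kinases, Src and Fyn had peaks. Src, which many cell types make, stood at 26.9 ± 7.87 CPM in db/m and 33.2 ± 11.0 CPM in db/db IP (SD, n = 5 and 6, adjusted p = 0.558), far above Fgr in the same libraries. Fyn was called in RNA-seq (adjusted p = 0.0326) from 0.403 ± 0.153 CPM in db/db against 0 in all 5 db/m libraries, under the 3-read limit in both.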

How the data were processed

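Kidneys of 6 db/db and 5 db/m mice were each sequenced as an ac4C IP and as RNA-seq without antibody, each animal being 1 replicate. Per the labels, RNA was extracted with TRIzol and sequenced as paired reads on DNBSEQ-T7, and the build is GRCm38; the aligner, the peak caller and the counting program, and whether strand was used, are not given in the sources used here. The authors deposited 1 table of 9857 peaks, called in db/db and in db/m mice, with raw read counts of every library in every peak. The authors' fold enrichment of each peak and its FDR were read as deposited and used only to describe peaks. The authors' comparison columns, a log2 difference with its p-value and FDR, were not used. Peak starts count from 0 in the table and were raised by 1, which matched 103 RefSeq gene starts against 8 as given.

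Counts were fitted over all peaks with edgeR 4.0.16 in R 4.3.3 (TMM, quasi-likelihood F test, Benjamini-Hochberg, call at adjusted p under 0.05) by genotype, for IP and RNA-seq apart, and for IP relative to RNA-seq as the interaction of library type and genotype with animal as a term. That interaction fit takes little account of a single peak's own spread. Levels are TMM-scaled CPM, a count of 0 was taken to allow 3 reads, and intervals of read ratios are exact binomial at 95% and cover counting error only, since reads without molecular identifiers are not independent molecules. The scripts were tested on simulated data. Named peaks are Fgr and core immune genes with a peak, every called peak, the highest RNA-seq level per length of each role, and the 3 largest relative differences among peaks with 10 reads or more on average in both library types, with 1 peak per region; others are said to be singled out. Members and lists were chosen with earlier results of these data known. Alternatives were DESeq2 1.42.0, limma 3.58.1 on per-animal differences, no TMM, filterByExpr, a fold threshold, unadjusted p, 1 peak per region, the animal number as a block (without db/db animal 6), and each animal left out. Python 3.11.15, pandas 2.3.3, numpy 2.4.6, scipy 1.17.1 and matplotlib 3.10.9 were used for summaries. Exon and UTR positions of peaks were not analysed here.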

Additional observations from a re-analysis of the deposited data

Results flagged for a closer look

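In 17 of 111 groups of 5 or 6 libraries of the named peaks, the highest or lowest library lay far from the others by Dixon's criterion. The nominal rate of that criterion gives about 5.55 such groups, but it is no fair yardstick here. Some of these peaks were chosen by their values, Il21r for its outlying db/db animal 3. In other groups, such as Cxcl9 and Irf1 in RNA-seq, 1 library held 1 read and the rest held 0. No excess over chance is therefore claimed. The IP level of C1qa was 34.11 CPM in db/db animal 3, that of Il21r was 15.37 CPM in the same animal with 2.284 CPM in its RNA-seq library, and that of the H2-T23 peak at chr17:36030645 was 69.94 CPM in db/db animal 5. Nfkbil1 stood at 43.21 CPM in IP reads of db/m animal 5. For Ifi203, db/m animal 1 was lowest in IP at 1.831 CPM and db/m animal 2 was highest in RNA-seq at 3.15 CPM. H2-Ke6 RNA-seq levels were 27.49 CPM in db/db animal 5 and 11.03 CPM in db/m animal 2. The others rest on 12 reads or fewer: Psmb9 at 1.377 CPM in IP of db/db animal 4, 1.272 CPM in IP and 0.315 CPM in RNA-seq of db/m animal 2; Csf2rb2 at 0.316 CPM in RNA-seq of db/db animal 5 and 0.0 CPM in that of db/m animal 2; Cxcl9 at 0.3033 CPM in RNA-seq of db/db animal 6; Ifi205 at 0.3012 CPM in RNA-seq of db/db animal 1; and Irf1 at 0.3272 CPM in RNA-seq of db/m animal 3.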

How the results depend on the processing

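Of 952 alternative values of 61 single results, 877 kept their direction and side of the threshold, 14 lost the call, 31 gained one and 30 changed sign; the cause was not tested. The 1 immune peak called in IP reads became 25 at unadjusted p, 2 without TMM, 7 in DESeq2, 5 with the replicate block, 2 with 1 peak per region, and 0 to 3 with 1 animal left out; it was 0 without db/db animal 2, db/db animal 5 or db/m animal 5 (each alone), and 3 without db/db animal 3, db/db animal 6 or db/m animal 2. The 7 called in RNA-seq reads became 4 with a fold threshold, 25 at unadjusted p, 4 after filterByExpr (43 immune peaks tested), 16 with the replicate block, and 5 to 10 with 1 animal left out. In IP relative to RNA-seq reads 5 passed at unadjusted p and 0 in every other alternative run, limma on per-animal differences and the replicate block included. Animal numbers were not taken as pairs: same-numbered db/db and db/m animals correlated in their deviations from -0.205 to 0.127 in IP and from -0.32 to 0.44 in RNA-seq, and 1 and 2 of 5 numbers respectively matched best with their own. With the replicate block Cxcl9 in IP lost its call (adjusted p = 0.0711 in edgeR), while C1qtnf7, Gbp3, Ifi30 and the H2-T23 peak at 36030645 gained one in IP (adjusted p from 0.0103 to 0.0431) and Ifi30, Nfkbil1, Nlrp6, Tlr12 and the H2-K1 peak at 33999785 in RNA-seq (from 1.25e-06 to 0.0244). That fit also left out db/db animal 6, so the block and the missing animal cannot be told apart in it. Without db/db animal 6 and with no block, C1qtnf7 and the H2-T23 peak passed in IP (edgeR adjusted p = 0.0376 and 0.0232). Ifi30 then passed in RNA-seq (0.0146).

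The H2-T23 peak at 36030645, uncalled in IP, was called in 7 of its alternatives, DESeq2 (adjusted p = 0.0138) and no TMM (edgeR adjusted p = 0.0321) among them, over a range of adjusted p from 0.0103 to 0.119. After filterByExpr it was the immune peak called in IP reads (edgeR adjusted p = 0.0413), and Cxcl9 was dropped by the filter and not tested. Sign changes concerned uncalled values. Without TMM, C1qa in IP was 0.067 and the H2-K1 peak at 33997075 was 0.051 in RNA-seq (log2). With 1 animal left out, C1qa ran from -0.585 to 0.179 in IP and from -0.204 to 0.732 in RNA-seq, that H2-K1 peak from -0.071 to 0.507 and from -0.142 to 0.262, H2-Ke6 from -0.21 to 0.007 and from -0.112 to 0.126, the H2-T23 peak at 36032228 from -0.062 to 0.204 and from -0.061 to 0.234, Csf2rb2 in IP from -0.347 to 1.158, Psmb9 in IP from -3.283 to 1.136 and the Cxcl12 peak at 117175049 in RNA-seq from -0.653 to 0.155. That Cxcl12 peak was singled out after its values were seen. Under 10 RNA-seq reads on average in 67 of 110 immune peaks limit what could be seen.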
